A study of Mus musculus with 8 samples.

Results

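The genes of cholesterol and fatty acid synthesis were examined in mouse embryonic fibroblasts after 24 h of low oxygen. The set was a list of 34 enzymes, regulators and transporters, and a gene counted as measured when at least 1 row of the deposited array table named it and no other gene in the platform annotation. A row is a probe set of the Mouse Exon 1.0 ST array, usually directed at a single exon. In the annotation used here Acat2 was named by no row, so 33 of the 34 genes were measured, on 794 rows, among 18848 genes tested in all. Msmo1 was found under its older symbol Sc4mol.

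The hypoxia group consisted of 4 arrays from primary fibroblasts kept for 24 h in an incubator lowered to 1% oxygen, and the normoxia group of 4 arrays from such cells kept for the same time in atmospheric oxygen. Both groups were commercial primary cells on 100 mm dishes in high-glucose medium with serum, at 37 °C and 5% CO2, and neither carried a named genetic change or drug. The methods call the replicates biological and state 1 more per condition than the labels list. The labels do not tie them to separate embryos or cell lots, so p-values measure the spread between these arrays. Serum carries lipoproteins, and cells in such medium can take up cholesterol as well as make it.

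Cholesterol is built from acetyl-CoA through mevalonate to squalene, which is then closed into a ring and trimmed to cholesterol. Molecular oxygen is consumed at the epoxidation of squalene, at the removal of the methyl groups of lanosterol and at the C5 desaturation, and again where fatty acids receive double bonds. Most of these genes are controlled by the transcription factors SREBP-1 and SREBP-2, which the escort protein SCAP carries from the endoplasmic reticulum when sterols are low and which INSIG proteins hold back when sterols are high.

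The level of a gene was its mean log2 intensity over the rows whose own mean over all arrays reached the table median (2.35). This kept 679 of the 794 rows, 6 to 79 per gene, and all 33 genes. A gene was called when its adjusted p in the limma fit over all genes was under 0.05. In such bulk samples, fewer cells of a type and less RNA per cell cannot be told apart. The genes used to check the labels were all called higher in hypoxia. Bnip3 averaged 8.73 ± 0.10 in hypoxia and 5.33 ± 0.29 in normoxia (SD, n = 4 each), and the log2 fold changes of Egln3, Pdk1, Slc2a1 and Vegfa ran from 0.87 to 2.75. Correlations between arrays over all rows were 0.859 to 0.878 within hypoxia, 0.923 to 0.944 within normoxia and 0.876 to 0.906 between the groups. The fibroblast markers Fn1 and Vim were bright in both groups (10.51 and 10.14 in hypoxia, 10.54 and 10.17 in normoxia). None of the 8 fibroblast markers was called, but 3 had an unadjusted p under 0.05, with log2 fold changes of -0.64 for Pdgfrb, 0.49 for Col3a1 and 0.42 for Pdgfra (limma adjusted p = 0.063, 0.080 and 0.12). Their part in the values below was not tested.

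Almost all of the measured genes had lower levels in hypoxia, by small amounts. The log2 fold change was negative for 32 of 33, against 75.7% of all genes, and their median was -0.28, against -0.19 for all genes. Relative to that common shift 22 of 33 lay lower, and 22 were negative when each array was centred on the median of its genes. The calls were 2 genes lower, Hsd17b7 and Mvk, and none higher, where 0.796% of all genes were called lower and 0.531% higher (150 and 100 genes, against 8 and 141 once arrays were centred). At an unadjusted p under 0.05, 14 of 33 (42.4%) were lower and none higher, against 20.4% and 3.02% of all genes. In 12 genes (36.4%) every hypoxia array lay below every normoxia array, as in 14.5% of all genes. The reverse held in none of the 33, and in 1.87% of all genes. These shares do not compare like genes. All genes had a median of 7 rows and 2305 rested on 1, while 27 of the 33 had at least 10. The median SD of the 33 was also smaller (0.192 in hypoxia and 0.163 in normoxia, against 0.251 and 0.217). The part of rows and spread in these shares was not tested.

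**Figure D1:**
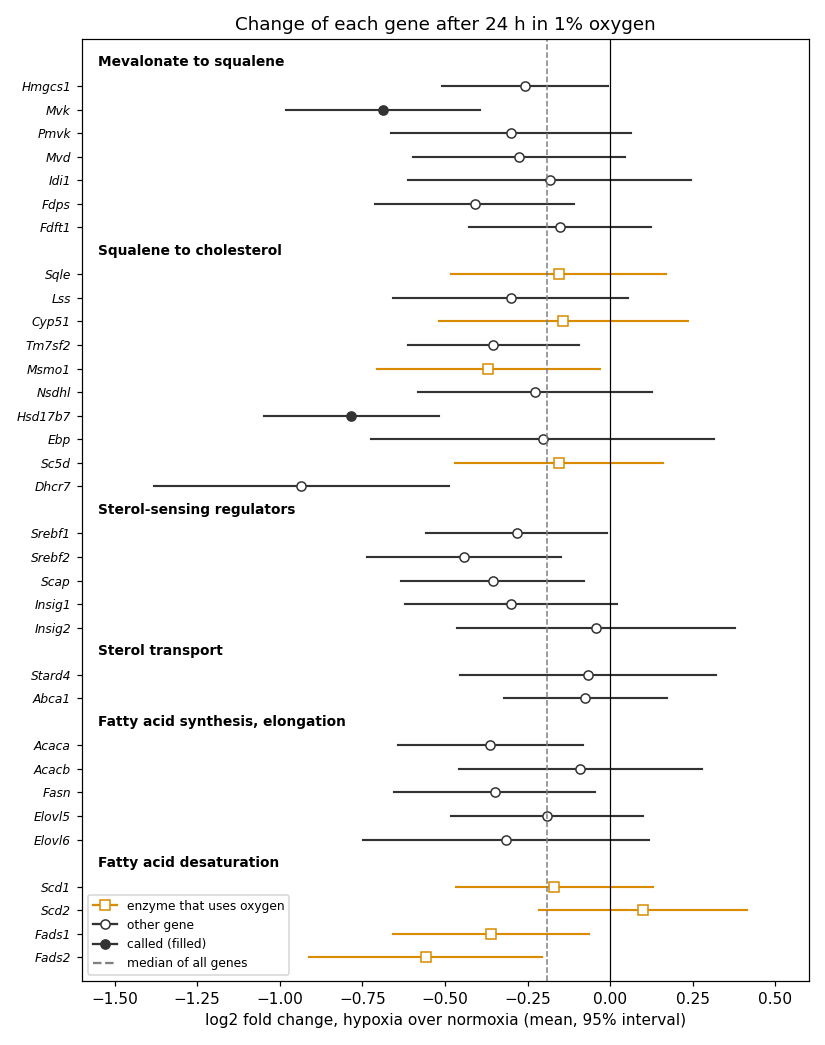
Log2 fold change of each measured gene, hypoxia over normoxia, with its 95% interval from limma (n = 4 arrays per group), grouped by role. Squares are enzymes that use oxygen, filled symbols are called genes, and the dashed line is the median of all genes at -0.19. Hsd17b7 and Mvk are filled, and Scd2 alone lies right of 0.

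Hsd17b7 reduces the keto group left when a methyl is removed from the sterol ring. It measured 4.53, 4.29, 4.46 and 4.27 on the hypoxia arrays, against 5.11, 5.23, 5.28 and 5.05 on the normoxia arrays. Each hypoxia value lay more than 0.5 below each normoxia value. It fell by 0.78 on the log2 scale (SE 0.12, limma adjusted p = 0.021), a fold of 0.581, and stood at -0.59 relative to all genes. Mvk, mevalonate kinase, had hypoxia values of 3.97, 3.83, 3.66 and 4.03, and normoxia values of 4.41, 4.57, 4.53 and 4.73. Its groups did not overlap either. It fell by 0.69 (SE 0.13, limma adjusted p = 0.044), or -0.50 relative to all genes. After centring both calls were lost (adjusted p = 0.082 for Hsd17b7 and 0.16 for Mvk). Mvk lost its call whichever array was left out (adjusted p 0.068 to 0.15), and Hsd17b7 kept its own only without hypoxia replicate 1 (adjusted p 0.038 to 0.093 over the 8).

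The promoters of these 2 genes are shown with that of Hmgcs1, a gene of the same branch, because they carry the CCAAT box, the element bound by NF-Y, a factor that acts beside SREBP at sterol genes. Each is the 250 bases before the start site in RefSeq (GRCm38.p6), at chr1:169969206-169969455 on the minus strand for Hsd17b7, chr5:114444019-114444268 on the plus strand for Mvk and chr13:119690101-119690350 on the plus strand for Hmgcs1. Capitals mark CCAAT or its reverse complement ATTGG, and in Hmgcs1 also the sterol element core CACCCCAC.
Hsd17b7: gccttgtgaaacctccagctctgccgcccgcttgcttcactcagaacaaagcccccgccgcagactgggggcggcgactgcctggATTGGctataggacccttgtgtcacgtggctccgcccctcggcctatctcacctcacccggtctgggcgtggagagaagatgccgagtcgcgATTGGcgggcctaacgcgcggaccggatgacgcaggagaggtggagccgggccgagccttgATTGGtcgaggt
Mvk: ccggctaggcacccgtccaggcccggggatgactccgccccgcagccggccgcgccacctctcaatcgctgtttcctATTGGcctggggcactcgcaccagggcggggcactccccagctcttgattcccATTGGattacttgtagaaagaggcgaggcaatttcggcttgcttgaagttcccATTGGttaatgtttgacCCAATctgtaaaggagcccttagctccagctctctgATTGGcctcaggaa
Hmgcs1: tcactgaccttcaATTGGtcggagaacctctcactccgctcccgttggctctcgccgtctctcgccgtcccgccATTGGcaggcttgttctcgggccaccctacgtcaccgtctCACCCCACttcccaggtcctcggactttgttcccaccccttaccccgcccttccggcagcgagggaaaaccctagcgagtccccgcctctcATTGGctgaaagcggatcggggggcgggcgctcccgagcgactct
There were 3 CCAAT boxes for Hsd17b7, 5 for Mvk and 3 for Hmgcs1. RefSeq windows were found for 27 of the 34 listed genes, with 35 windows in all since some genes have several starts. CCAAT on either strand occurred in 22 of the 35 windows (62.9%), against 33.8% of 32851 windows of all genes. The E-box CACGTG occurred in 7 windows, against 6.02% of all, and CACCCCAC in 2 (5.71%), those of Hmgcs1 and Acat2, against 2.58%. Of the hypoxia-response cores, ACGTG, which every CACGTG contains, occurred in 8 windows (22.9%, against 16.6%) and GCGTG in 17 (48.6%, against 28.2%). The Hsd17b7 window printed above holds both CACGTG and GCGTG, left unmarked there, and those of Mvk and Hmgcs1 hold neither. A longer form of the sterol element was in none of the 35 and in 0.0731% of all windows. These are matches of letters only.

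The steps from acetyl-CoA to squalene had 7 measured enzymes, all with negative fold changes on the deposited values and a median of -0.28. Besides Mvk, Fdps and Hmgcs1 did not overlap between groups. Fdps, which makes farnesyl diphosphate, measured 4.79, 5.25, 5.08 and 4.99 in hypoxia and 5.50, 5.37, 5.33 and 5.57 in normoxia. Hypoxia replicate 1 was the lowest of all its arrays, and its log2 fold change was -0.41 (95% interval -0.71 to -0.11, adjusted p = 0.13). Hmgcs1, which joins acetyl-CoA units ahead of mevalonate, measured 6.09, 6.14, 6.03 and 6.01 in hypoxia against 6.22, 6.49, 6.30 and 6.29 in normoxia. The gap between its groups was narrow, and the log2 fold change was -0.26 (adjusted p = 0.20). For Pmvk and Mvd, the kinase and the decarboxylase after mevalonate kinase, the log2 fold changes were -0.30 and -0.28. They were -0.18 for the isomerase Idi1 and -0.15 for Fdft1, squalene synthase. The arrays of these 4 genes overlapped between the groups. Relative to the median of all genes Idi1 was at 0.01 and Fdft1 at 0.04.

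From squalene to cholesterol, the 6 enzymes that need no oxygen had a median log2 fold change of -0.33 and all lay below the median of all genes. Dhcr7, the reductase of the last step, had the most negative estimate of the 33 genes. It measured 4.20, 3.62, 4.08 and 3.45 in hypoxia and 4.56, 5.09, 4.74 and 4.70 in normoxia. The hypoxia arrays were spread widely (SD 0.36, against 0.22 in normoxia) but stayed below every normoxia array. Its log2 fold change was -0.93 (SE 0.20, limma adjusted p = 0.059), and it was called when no filter was set on dim rows (adjusted p = 0.035) and with an intensity trend in the variance (adjusted p = 0.034). It was not called in the other 16 of the 18 alternatives, with an adjusted p of up to 0.22. Tm7sf2, a reductase of the C14 double bond, measured 3.72, 3.61, 3.78 and 3.59 in hypoxia against 4.09, 4.16, 3.89 and 3.97 in normoxia. Here too the groups were apart, with a log2 fold change of -0.35 (adjusted p = 0.13). Lss, which closes the sterol ring, Nsdhl, which removes a carboxyl group from it, and the isomerase Ebp had log2 fold changes of -0.30, -0.23 and -0.20 with overlapping arrays. Ebp rested on 6 rows and spread from 2.89 to 4.04 within normoxia alone.

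Of the 4 sterol enzymes that use oxygen none was called, and their median log2 fold change was -0.16. Msmo1 was the most negative of them, beyond Tm7sf2, Lss, Nsdhl and Ebp. Sqle, squalene epoxidase, had hypoxia values of 5.69, 5.58, 5.78 and 5.34 and normoxia values of 5.58, 5.90, 5.91 and 5.62. The ranges overlapped, with a log2 fold change of -0.16 (95% interval -0.48 to 0.17, adjusted p = 0.53). Cyp51, the cytochrome P450 that removes the C14 methyl, had 5.20, 5.43, 5.44 and 5.69 in hypoxia and 5.30, 5.80, 5.82 and 5.41 in normoxia. Its log2 fold change was -0.14 (interval -0.52 to 0.23, adjusted p = 0.63). Sc5d, the C5 desaturase, had 6.35, 6.29, 6.27 and 6.13 in hypoxia, against 6.27, 6.70, 6.49 and 6.19 in normoxia. Its fold change was -0.16 (interval -0.47 to 0.16, adjusted p = 0.52), and the sign of all 3 turned positive after centring. Msmo1, which oxidises the C4 methyls, had 5.75, 5.70, 5.73 and 5.63 in hypoxia against 5.76, 6.39, 6.19 and 5.94 in normoxia. The groups of Msmo1 touched at hypoxia replicate 1 and normoxia replicate 1 without overlapping, and its log2 fold change was -0.37 (adjusted p = 0.18). The cyclic loess values of Sqle and Cyp51 were positive as well.

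Over the cholesterol and fatty acid branches together, the 8 enzymes that use oxygen had a median log2 fold change of -0.16 and 3 of them lay below the median of all genes. The 18 measured enzymes that do not use it had a median of -0.30, and 15 lay below. None of the 8 was called and both calls fell among the 18, where 0.796% of all genes were called lower and 0.531% higher. Both calls were lost after centring, and so few calls cannot tell the sets apart. The order of these medians was the same in all 18 alternatives tried, which reuse the same arrays. Without hypoxia replicate 4 they were only -0.22 and -0.24. They were 0.03 and -0.11 after centring, and -0.043 and -0.099 after cyclic loess. The sets also differed in brightness. By level, the 8 lay between percentiles 87.0 and 99.1 of all genes, and the 18 between 15.5 and 95.2. The part of signal level in the order was not tested. Enzymes within each set share the arrays, so the comparison of medians is a description.

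**Figure D2:**
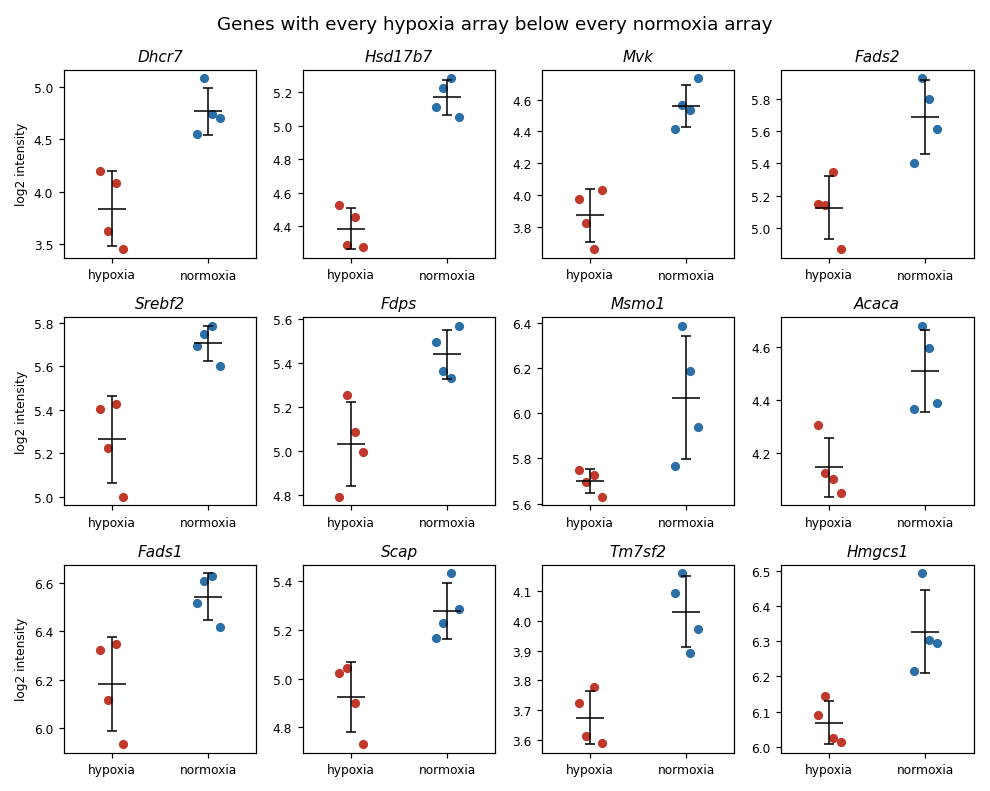
Log2 intensity on each array (points) for the 12 genes in which every hypoxia array lay below every normoxia array, hypoxia at left, with the mean and SD of each group (n = 4). The gaps are widest relative to the spread for Hsd17b7 and Mvk and narrowest for Msmo1 and Fads2, and each panel has its own axis.

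Among the regulators of the pathway no gene was called, and all 5 had negative fold changes on the deposited values, although that of Insig2 turned positive after centring, cyclic loess and quantile normalization. Srebf2, the gene of the factor that chiefly drives sterol genes, measured 5.41, 5.22, 5.43 and 5.00 in hypoxia and 5.69, 5.75, 5.78 and 5.60 in normoxia, on 79 rows. The groups were apart, and its log2 fold change was -0.44 (SE 0.13, adjusted p = 0.11). Scap measured 5.02, 5.04, 4.90 and 4.73 in hypoxia against 5.17, 5.23, 5.43 and 5.29 in normoxia, a log2 fold change of -0.36 (adjusted p = 0.14) with no overlap. Srebf1, whose products act more on fatty acid genes, measured 4.88, 4.57, 4.58 and 4.59 in hypoxia against 4.96, 4.83, 5.04 and 4.93 in normoxia. Hypoxia replicate 1 reached into the normoxia range, and the log2 fold change was -0.28 (adjusted p = 0.20).

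The INSIG genes, whose proteins retain SCAP in the endoplasmic reticulum, were not called either. Insig1 measured 5.39, 5.38, 5.46 and 5.04 in hypoxia and 5.67, 5.57, 5.82 and 5.41 in normoxia. Only hypoxia replicate 3 reached above the lowest normoxia array, for a log2 fold change of -0.30 (adjusted p = 0.24). Insig2 measured 3.86, 4.31, 4.61 and 4.09 in hypoxia and 4.10, 4.57, 4.09 and 4.27 in normoxia. The groups covered the same range, with a log2 fold change of -0.04 (interval -0.46 to 0.38) that was positive in 6 of the 18 alternatives. Of the transporters, the sterol carrier Stard4 was at -0.07 and Abca1, which exports cholesterol, at -0.08, both above the median of all genes.

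In a wider list of 15 measured genes of sterol handling and SREBP processing, 2 were called lower and none higher, where 0.796% and 0.531% of all genes were. The median log2 fold change of the list was -0.36, against -0.19 for all genes. Lbr, which like Tm7sf2 reduces the C14 double bond, averaged 3.32 ± 0.13 in hypoxia and 4.05 ± 0.16 in normoxia, a log2 fold change of -0.73 (SE 0.13, limma adjusted p = 0.039). Mylip, a ubiquitin ligase that marks lipoprotein receptors for breakdown, averaged 3.77 ± 0.16 in hypoxia and 4.45 ± 0.10 in normoxia, a log2 fold change of -0.69 (SE 0.12, limma adjusted p = 0.042). Both lost their calls whichever array was left out. Over the 18 alternatives the adjusted p ran from 0.028 to 0.15 for Lbr and from 0.026 to 0.49 for Mylip, and each was called in 3. Mbtps2, a protease that releases SREBP from the membrane, named after its value was seen, was at -0.68 (adjusted p = 0.056). Npc2 and Soat1, the brightest of the list, were at 0.07 and 0.14. Npc2 moves cholesterol out of lysosomes and Soat1 esterifies it.

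Fatty acid synthesis and elongation had 5 measured genes, none called, with a median log2 fold change of -0.32. Acaca, the acetyl-CoA carboxylase that supplies malonyl-CoA for synthesis, measured 4.31, 4.12, 4.10 and 4.05 in hypoxia against 4.37, 4.68, 4.60 and 4.39 in normoxia. The groups did not overlap on its 77 rows, and the log2 fold change was -0.36 (adjusted p = 0.14). Its mitochondrial relative Acacb measured 3.37, 3.12, 2.80 and 2.93 in hypoxia and 3.34, 2.86, 3.21 and 3.17 in normoxia. These values overlapped, and the log2 fold change of -0.09 became 0.10 after centring. They lay near 2.997, the median level of 310 smell and pheromone receptor genes, whose 95th percentile was 5.23. The called genes Mvk (3.87 in hypoxia, 4.56 in normoxia) and Hsd17b7 (4.39 and 5.17) averaged below that percentile in both groups. So did Dhcr7 (3.84 and 4.77), and Lbr (3.32 and 4.05) and Mylip (3.77 and 4.45) of the wider sterol list. Hmgcs1, Fdft1, Sqle, Cyp51, Msmo1, Nsdhl, Sc5d, Srebf2, Insig1, Fasn, Elovl5, Scd1, Scd2 and Fads1 averaged above it in both groups. The part of signal level in the calls was not tested. Fasn, fatty acid synthase, measured 5.50, 5.26, 5.26 and 5.04 in hypoxia against 5.49, 5.69, 5.76 and 5.51 in normoxia. Hypoxia replicate 1 alone reached the lowest normoxia array, and the log2 fold change was -0.35 (adjusted p = 0.17).

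Of the elongases in the set, Elovl6 spread more widely (SD 0.303 in hypoxia and 0.270 in normoxia) than Elovl5 (0.096 and 0.184). Elovl5, which lengthens polyunsaturated chains, measured 6.25, 6.19, 6.15 and 6.37 in hypoxia against 6.32, 6.67, 6.46 and 6.26 in normoxia. Elovl6, which lengthens saturated ones, measured 4.64, 4.99, 4.85 and 4.29 in hypoxia against 4.63, 5.21, 4.99 and 5.20 in normoxia. Both overlapped, with log2 fold changes of -0.19 (adjusted p = 0.39) and -0.32 (adjusted p = 0.34).

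The desaturases use oxygen to place double bonds, and none of them was called. Their log2 fold changes ran from -0.56 for Fads2 to 0.10 for Scd2, and no Fads gene was tested against an Scd gene. Fads2, the delta-6 desaturase, measured 5.15, 5.15, 5.35 and 4.87 in hypoxia and 5.40, 5.93, 5.80 and 5.61 in normoxia. Its groups came within 0.1 of each other without overlapping, and its log2 fold change was -0.56 (SE 0.16, adjusted p = 0.10). Fads1, the delta-5 desaturase, measured 6.32, 6.12, 6.35 and 5.93 in hypoxia against 6.51, 6.61, 6.63 and 6.42 in normoxia. These were also apart, with a log2 fold change of -0.36 (adjusted p = 0.15). Scd1, a stearoyl-CoA desaturase, measured 6.91, 6.75, 7.02 and 7.10 in hypoxia against 7.08, 7.33, 7.11 and 6.94 in normoxia. The ranges overlapped and the log2 fold change was -0.17 (adjusted p = 0.46), or 0.019 after centring. Scd2, its relative, measured 8.55, 8.44, 8.33 and 8.08 in hypoxia against 8.12, 8.39, 8.35 and 8.14 in normoxia. It was the only one of the 33 with a positive log2 fold change, 0.10 (interval -0.22 to 0.41, adjusted p = 0.69). The Scd genes are close copies, and how well their rows keep them apart was not tested.

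A wider list of 23 measured genes of fatty acid metabolism held no called gene. Unadjusted, 6 (26.1%) were lower, against 20.4% of all genes, and the list had a median log2 fold change of -0.20, against -0.19 for all genes. Tecr, which completes each round of elongation, was at -0.09 and the elongase Elovl1 at -0.33. Markers of fat cells, which make much fat, were not called (0 of 8). At an unadjusted p under 0.05, Adipoq and Plin1 were lower, with log2 fold changes of -0.62 and -0.37. Lep was higher, at 0.63 (limma adjusted p = 0.19, 0.21 and 0.095 for these genes in turn). The summed log2 intensity of the 8 markers ran from 27.23 to 28.29 in hypoxia and from 27.08 to 29.62 in normoxia. A sum hides such opposite changes, and the part of these markers in the values above was not tested. No marker was called among 7 epithelial, 5 endothelial and 5 macrophage genes. Their sums also reached higher in normoxia, the epithelial one running from 25.26 to 26.34 in hypoxia and from 25.46 to 29.19 in normoxia.

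Whether related genes changed unequally was tested for 6 pairs with the difference between the 2 genes on each array. The test was an exact two-sided permutation over the 70 splits of the arrays, whose smallest possible p is 0.029. For a single pair that becomes 0.17 after adjustment over the 6, so no pair could pass alone, and none did. Fads1 minus Fads2 was 0.20 ± 0.10 (SE) higher in hypoxia (exact p = 0.11, adjusted over the 6 pairs 0.27). Scd1 minus Scd2 was -0.27 ± 0.17 in hypoxia relative to normoxia (exact p = 0.20, adjusted 0.27), and Acaca minus Acacb was -0.27 ± 0.19 (exact p = 0.20, adjusted 0.27). The differences were -0.26 ± 0.23 for Insig1 minus Insig2, 0.16 ± 0.11 for Srebf1 minus Srebf2 and 0.12 ± 0.24 for Elovl5 minus Elovl6 (exact p = 0.23, 0.20 and 0.69). These tests do not show that the genes of a pair moved alike.

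The rows of single genes were compared to see whether a change ran along the whole gene. Of the 679 rows of the 33 genes, 519 (76.4%) were lower in hypoxia, against 65.5% of all rows. Every row was lower for Hsd17b7 (13 of 13), Mvk (14 of 14) and Dhcr7 (13 of 13), 3 of the 27 genes with at least 10 rows, where 1.58% of all such genes had every row lower. Fads2 had 19 of 20 rows lower and Srebf2 71 of 79, while Abca1 had 29 of 53 and Scd2 had 2 of 8. The rows of Dhcr7 ran from -2.62 to -0.05 and those of Mvk from -1.64 to -0.11, so estimates along these genes shared a sign but not a size. In a limma fit over all 191376 rows no row of these genes passed, where 0.0334% of all rows were called lower and 0.146% higher. With an intensity trend in the variance 7 passed lower, where 0.513% of all rows did. Rows of a gene share the arrays and are not replicates.

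**Figure D3:**
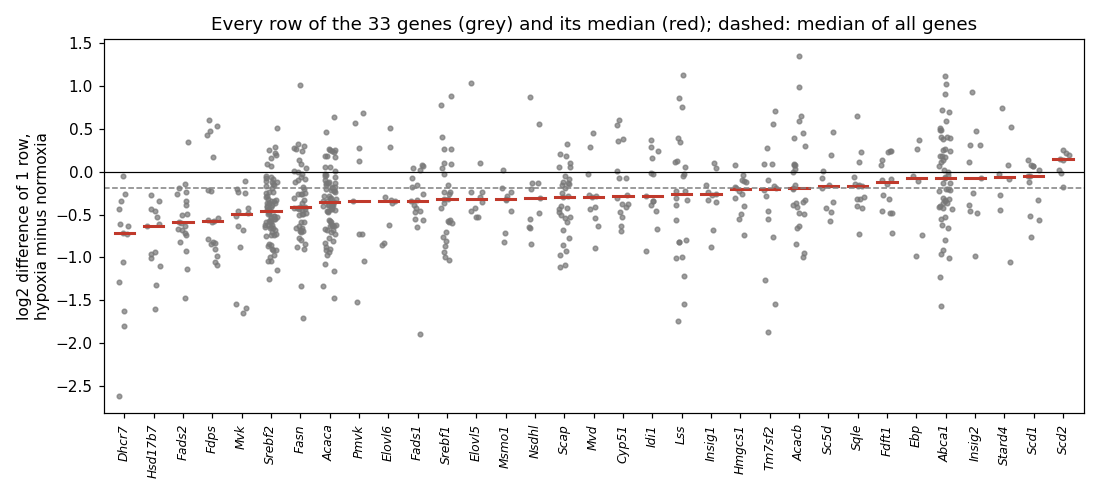
Log2 difference between hypoxia and normoxia for each of the 679 rows (grey points), by gene, with the median of the rows of each gene in red and the median of all genes dashed at -0.19. All points of Hsd17b7, Mvk and Dhcr7 lie below 0, while those of Abca1 and Lss spread to both sides.

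The arrays of a group differed together in these genes. The mean over the 33 genes was 5.02, 4.98, 5.05 and 4.85 on the hypoxia arrays and 5.15, 5.41, 5.33 and 5.21 on the normoxia arrays. Hypoxia replicate 4 was the lowest of its group in 22 of the 33 genes, while normoxia replicate 1 was the lowest of its group in 19 and normoxia replicate 2 the highest in 18. Over all genes the median of normoxia replicate 2 (3.95) was instead the lowest of the normoxia arrays, which ran up to 4.06 in normoxia replicate 1, and that of hypoxia replicate 4 (3.80) the lowest of the hypoxia arrays, which ran up to 3.88. The median SD of the 33 genes was 0.192 in hypoxia and 0.163 in normoxia, against 0.251 and 0.217 for all genes. Without hypoxia replicate 4 the median log2 fold change of the 33 was -0.23, and without normoxia replicate 2 it was -0.25.

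**Figure D4:**
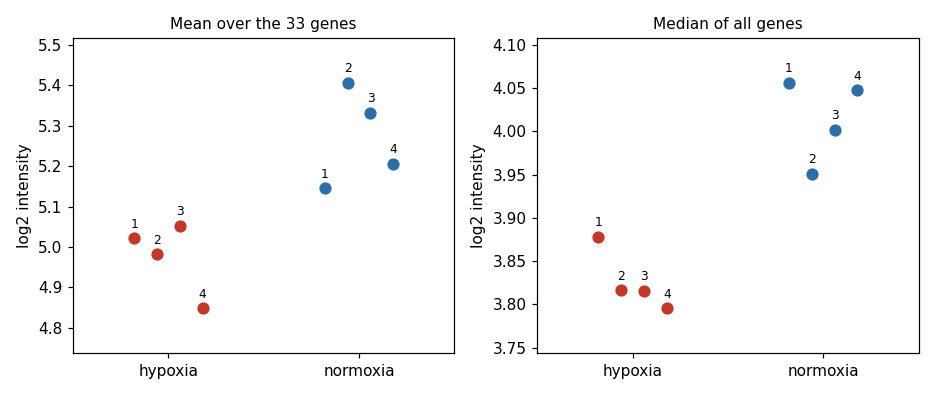
Mean log2 intensity over the 33 genes (left panel) and median over all genes (right panel) on each array, hypoxia at left in each panel, with the replicate number above each point. Normoxia replicate 2 is the highest point at left and the lowest normoxia point at right.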

How the data were processed

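Values came from Mouse Exon 1.0 ST arrays, 4 hypoxia and 4 normoxia. The authors extracted RNA, amplified 50 ng of it, labelled it with biotin and deposited 1 table of linear signal intensity for 641130 probe sets, all of whose columns were assigned to a sample. How background, normalization and summarization were done for this table is not given in the sources used here. Array medians over all rows were 2.38 to 2.44 on the log2 scale. The intensity values were used as deposited, as log2 without a pseudocount. Over the gene levels that were fitted the arrays were not level. Their medians were 3.80 to 3.88 in hypoxia and 3.95 to 4.06 in normoxia, and results with rescaled arrays are given below. Of the rows, 307991 named 1 gene in the platform annotation, 7047 several and 326092 none. Of 21842 symbols, 3985 were updated and 63 kept as given, by the RefSeq gene table of GRCm38.p6. Rows below the table median were left out and the others averaged per gene.

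The hypoxia and normoxia arrays were set against each other by a linear model per gene, with neither covariate nor block (limma 3.58.1, R 4.3.3), and p-values were adjusted by Benjamini-Hochberg over all 18848 genes. Data were simulated for 18848 genes from the mean and SD of each gene, with independent noise and no shift common to all genes. There the fit recovered 10% of the genes given a log2 change of 0.5 and 62% of those given a change of 1. Of unchanged genes 0.0322% were called. How far these rates hold under the common shift of these arrays was not tested. Genes with values on every array were those called or at an unadjusted p under 0.05, the enzymes that use oxygen and both genes of each pair. From the wider lists, the called genes and the brightest were named. The genes, lists and rules were chosen with earlier results of these data known. Motifs were searched on both strands of 250 bases from RefSeq promoters. The number of arrays limits the precision. Figures used matplotlib 3.10.9.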

Additional observations from a re-analysis of the deposited data

Results flagged for a closer look

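Srebf1 in hypoxia had an array far from the others of its group. Hypoxia replicate 1 measured 4.88 on the log2 scale, while the other 3 hypoxia arrays lay between 4.57 and 4.59, and the gap took up 0.959 of the range of the group. Of 66 groups of 4 arrays examined this was the only such case. Chance flags about 1 group in 20, so 1 among 66 is no more than chance would give. Without hypoxia replicate 1 the log2 fold change of Srebf1 was -0.36 (limma adjusted p = 0.13).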

How the results depend on the processing

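Of the 33 genes, 2 were called lower on the deposited values. With quantile normalization, cyclic loess, relative ranks within arrays, a stricter filter on dim rows or the median over rows the count was 1, Hsd17b7 each time, and with arrays centred on the median of all genes it was 0. Leaving out 1 array gave 0 to 1 (Hsd17b7, without hypoxia replicate 1). No filter or an intensity trend added Dhcr7, for 3, and robust eBayes kept 2. No gene was called higher under any alternative. Their median log2 fold change, -0.28, was -0.083 after cyclic loess and -0.10 after centring, and stayed negative under the others on the log2 scale, from -0.32 to -0.19. Relative ranks have another unit and give no such median. Relative to the median of all genes it was -0.093 on the deposited values and after centring. It was -0.074 after cyclic loess and -0.21 with no filter. Of the 33 genes, 22 lay below the median of all genes on the deposited values, and 19 to 29 under the alternatives. Of single rows none was called lower on the deposited values. With the stricter filter 1 was, where 126 of all 109034 rows were. With an intensity trend 7 were (on Fdps, Fads2, Srebf2, Fads1 and Pmvk), where 0.513% of all rows were.

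Of 432 values of the 24 genes described in full under the alternatives, 390 kept their direction and their side of the threshold, 24 lost a call, 2 gained one and 16 changed sign. Among genes not called, Sqle became 0.0030 after cyclic loess and 0.032 after centring, Cyp51 0.025 and 0.046 (and 0.34 percent ranks on relative ranks), Acacb 0.047 and 0.10, and Insig2 0.18 and 0.14. After centring Sc5d was at 0.033 and Scd1 at 0.019. On relative ranks Elovl5 was at 0.17 percent ranks. Insig2 was also positive with quantile normalization (0.044), the stricter filter (0.13) and without hypoxia replicate 1 or normoxia replicate 2, and ran from -0.17 to 0.0765 with 1 array left out. With the median over rows Srebf1 minus Srebf2 was -0.10 and Elovl5 minus Elovl6 was -0.028, and the last ran from -0.054 (without hypoxia replicate 4) to 0.24 (without hypoxia replicate 2) with 1 array left out. No pair passed with quantile normalization, either other filter, the median over rows or 1 array left out, the alternatives run for pairs. The cause of these changes was not tested.

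Replicate numbers are shared between the groups, but same-numbered arrays did not deviate together (correlations -0.115 to 0.072, and 1 of 4 hypoxia arrays correlated best with its own number). Over all genes, 100 were higher and 150 lower on the deposited values. There were 126 and 53 after quantile normalization, 172 and 33 after cyclic loess, 141 and 8 after centring, 40 and 18 on relative ranks, 217 and 259 with no filter, 123 and 234 with the stricter one, 72 and 25 with the median over rows, 142 and 403 with the trend, and 54 to 74 and 7 to 51 with 1 array left out. In a fit with the replicate block, 0 of the 33 genes were called, and 34 genes were higher and 3 lower over the whole table. In the simulated data with 4 arrays per group, most changes of 0.5 on the log2 scale were not called (10% recovered). The simulated data held no shift common to all genes. How far that rate holds here, and for the 33 genes, whose median SD was smaller than that of all genes, was not tested.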
